A study of Arabidopsis thaliana with 2 samples.

Results

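The anaphase-promoting complex, or cyclosome (APC/C), is the ubiquitin ligase that marks B-type cyclins and securin for destruction, and so lets sister chromatids part and cells leave mitosis. In yeast and human complexes, a platform of APC1, APC4 and APC5 joins an arc of subunits with tetratricopeptide repeats (CDC27, APC6, APC7 in animals, and APC8) to a catalytic module, in which the cullin-like APC2 works beside APC10, a subunit that helps to hold the substrate. Arabidopsis has a pair of CDC27 genes, CDC27A and HOBBIT, and HOBBIT is known for its need in the root meristem. The 10 genes described here are APC1 (AT5G05560), APC2 (AT2G04660), CDC27A (AT3G16320), HOBBIT (AT2G20000), APC4 (AT4G21530), APC5 (AT1G06590), APC6 (AT1G78770), APC7 (AT2G39090), APC8 (AT3G48150) and APC10 (AT2G18290), chosen by locus code among 27444 protein-coding genes on the 5 nuclear chromosomes.

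The series asks which genes are bound by MYB3R3, one of the Arabidopsis MYB proteins with repeated MYB domains that act on genes of the mitotic cell cycle. Untreated Col-0 plants with a fusion of MYB3R3 to GFP, the green fluorescent protein, were grown in liquid medium with sucrose in continuous light and taken as whole seedlings 9 days after germination. One ChIP library was made with an antibody against GFP, and 1 input library came from the same line; no library from plants without the fusion protein was analysed here. Whole seedlings hold dividing and non-dividing cells, and the list does not show in which of them a site was bound. The labels give neither the promoter of the fusion nor the state of the endogenous MYB3R3 gene. The values below come from the 2931 peaks deposited for the ChIP library; no file of the input was used here. Read depth is unknown, and with 1 library there was no replicate check, so no test was made and every value below is a description of this list.

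Of the 10 core subunit genes, 4 had a peak that overlapped the gene or the 1000 bp to either side of it: CDC27A, APC6, APC8 and APC5. The same rule took 13.9% of all protein-coding genes (3828 of 27444). The other 6, HOBBIT, APC7, APC1, APC4, APC2 and APC10, had none. By module, 3 of 5 genes of the repeat arc, 1 of 3 genes of the platform and 0 of 2 genes of the catalytic module had a peak. Of the 10 genes, 9 are longer than the median of all protein-coding genes. Their own median length was 5038 bp against 2078 bp, and a longer gene offers a wider window. Among the 14191 genes at least as long as APC10, the shortest of the 10 at 2024 bp, 17.6% had a peak. This floor lies below the median length of all protein-coding genes, so it adjusts little for length. The share among genes of about 5038 bp was not computed.

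**Figure D1:**
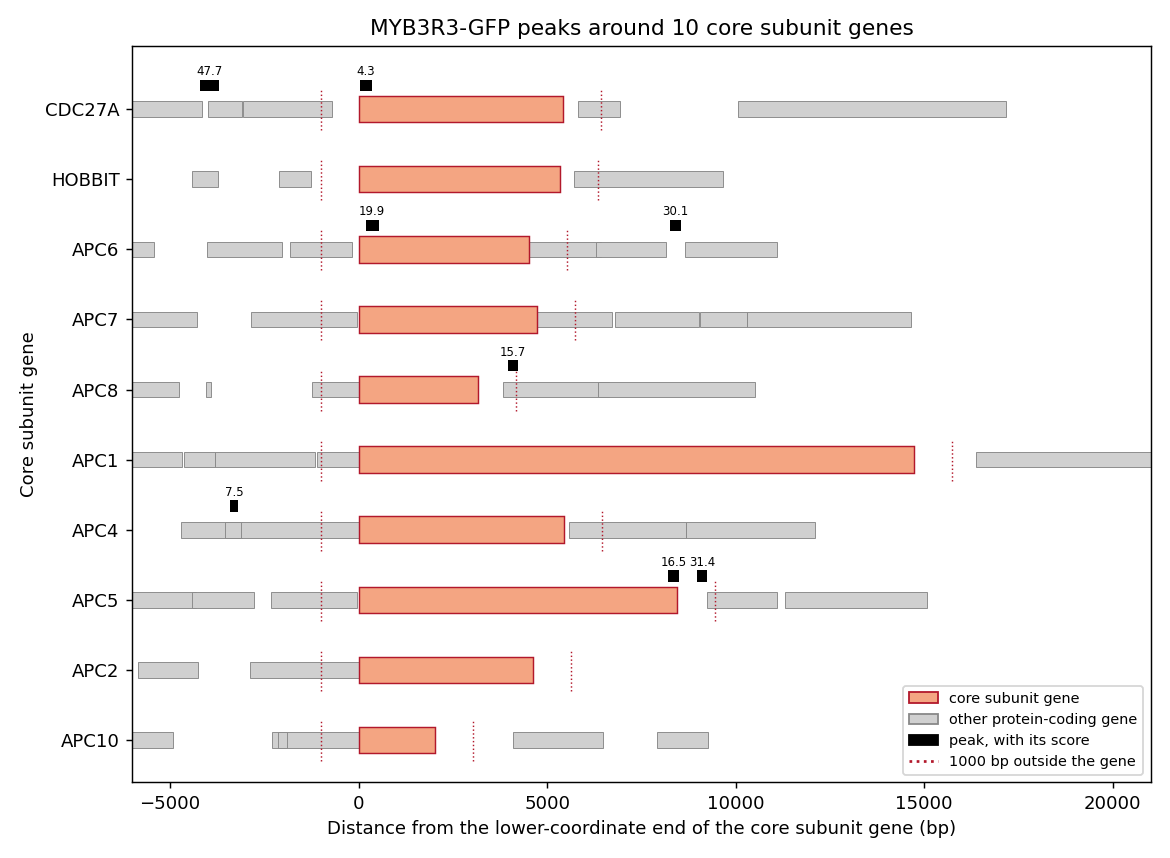
Each row shows 1 core subunit gene to scale (orange), other protein-coding genes (grey) and the deposited peaks with their scores (black), against the distance in bp from the gene end with the lower coordinate. Dotted lines mark 1000 bp outside the gene; 5 peaks lie between them, 1 each at CDC27A, APC6 and APC8 and 2 at APC5.

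Each peak carries a score deposited by the authors, used here only to rank peaks within the list, since no source states its formula. All 2931 peaks had a median score of 17.4, with quartiles of 12.0 and 28.5. The highest scores at the 4 core subunit genes were 31.4 at APC5, 19.9 at APC6, 15.7 at APC8 and 4.29 at CDC27A, with a median of 17.8. For all 3828 protein-coding genes with a peak the median of the highest score was 18.5. The 4 values thus spread widely, and their median lay next to that of all genes with a peak. Their 5 peaks were between 261 and 340 bp wide, around the median of 275 bp of all peaks.

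APC6, a subunit of the repeat arc that is also known in Arabidopsis as NOMEGA and is needed for the female gametophyte, had the highest score among peaks that overlapped a core subunit gene. Its peak lay on chromosome 1 from 29617113 to 29617452 (TAIR10), wholly inside the gene, and had a score of 19.9. It ranked 1186 of 2931, and 59.5% of all peaks scored lower. The midpoint was 363.5 bp inside the gene, counted from the end with the lower coordinate. The strand of genes was not used here, so whether this is the start or the end of transcription is not stated. The neighbour AT1G78760 was 375 bp from the peak, near enough for the same peak to count for it as well.

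CDC27A, one of the pair of CDC27 genes, had a peak among the lowest of the whole list. It lay on chromosome 3 from 5529340 to 5529668, wholly inside the gene, with a score of 4.29. Only 2 of the 2931 peaks scored lower. Its midpoint was 191 bp inside the gene, again from the end with the lower coordinate, and AT3G16310 was 738 bp away from the peak. HOBBIT, the other gene of the pair, had no peak: its nearest one was 19086 bp away, with a score of 28.1. The pair therefore differed in this list by 1 peak that scored close to the lowest value of 4.13.

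APC5, a platform subunit, was the only one of the 10 genes with 2 peaks. The first lay across the gene end with the higher coordinate, on chromosome 1 from 2024519 to 2024793. It had a score of 16.5 and rank 1530, with its midpoint 93 bp inside APC5 and 231 of its 275 bp within the gene. The second, from 2025267 to 2025551, had a score of 31.4 and rank 666, the highest of the 5 peaks. This stronger peak lay outside APC5, 518 bp from it. It overlapped the neighbouring gene AT1G06620, whose nearest end was 135 bp from the midpoint, and also the tRNA gene AT1G06610. In the whole list 96 peaks (3.28%) overlapped a tRNA gene. The highest score of APC5 therefore came from a peak nearer to another gene, while the peak on APC5 itself scored below the median of the list.

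APC8, a repeat-arc subunit also called CDC23, came within the rule only through a peak on its neighbour. The peak lay on chromosome 3 from 17783468 to 17783728, with a score of 15.7 and rank 1646. It was 786 bp from APC8 and overlapped DEL1, with its midpoint 267 bp inside an end of that gene. DEL1 encodes an atypical E2F factor known in Arabidopsis as a repressor of CCS52A2, itself an activator of the APC/C. The space between APC8 and DEL1 was 648 bp. Among the 10 genes this was the peak nearest to the 1000 bp limit on the inside; the nearest on the outside was 3203 bp from APC4.

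All 5 peaks at core subunit genes also came within 1000 bp of another protein-coding gene. Of the 2931 peaks, 1463 (49.9%) reached 2 or more protein-coding genes and 1266 reached 1. The rest reached none, whereas the 5 peaks reach a core subunit gene by the rule. For 3 of the 5, the gene nearest to the midpoint was the core subunit gene itself, at CDC27A, APC6 and the first peak of APC5. The other 2 were nearest to DEL1 and AT1G06620. The highest-scoring peak overlapped the gene itself at 2 of the 4 core subunit genes, CDC27A and APC6, and at 57.3% of all protein-coding genes with a peak.

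The 6 genes without a peak were at very different distances from the nearest one. APC4, a platform subunit, was nearest, 3203 bp from a peak with a score of 7.46. That peak lay inside 2 overlapping genes, FBS2 and AT4G21515. APC1, the largest platform subunit and the longest of the 10 genes at 14733 bp, was 7331 bp from a peak with a score of 12.3. HOBBIT and APC7, both of the repeat arc, were 19086 and 19453 bp away. Of all protein-coding genes, 63.0% lay nearer to a peak than HOBBIT did, and 63.6% nearer than APC7.

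APC10 and APC2, the 2 genes of the catalytic module among the 10, were farthest from any peak. APC10 was 44763 bp from its nearest peak, which scored 10.2. APC2, the cullin-like subunit, was 149715 bp from its nearest peak, and 97.7% of all protein-coding genes lay nearer to one. No peak lay within 50 kb of APC2, whereas the other 9 genes had between 1 and 11 peaks in that distance. The median distance to a peak was 5267 bp for the 10 core subunit genes and 12196 bp for all protein-coding genes. For the 6 core subunit genes without a peak it was 19269.5 bp, a group picked for having none within 1000 bp.

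**Figure D2:**
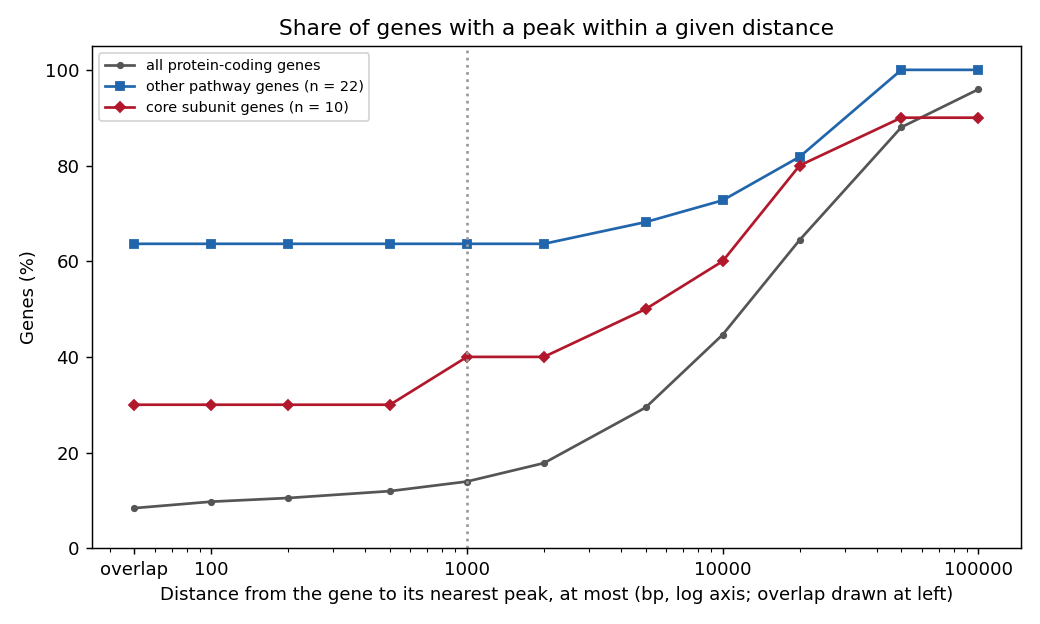
The plot gives the share of genes (%) whose nearest peak lies within a given distance (bp, log axis), for the 10 core subunit genes, 22 other genes of the pathway and all protein-coding genes. At 1000 bp (dotted line) these are 4 of 10 genes, 14 of 22 genes and 13.9%; at 100000 bp the core curve lies below that of all genes, and APC2 is the 1 core gene not yet included.

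By chromosome, the genes with and without a peak fell apart. Chromosome 2 holds 4 of the 10 genes (HOBBIT, APC7, APC2 and APC10), and none of them had a peak. Of all protein-coding genes on chromosome 2, 12.0% had one, against 13.6 to 14.6% on the other chromosomes. Both genes on chromosome 1 (APC5 and APC6) and both on chromosome 3 (CDC27A and APC8) had a peak, while the single genes on chromosome 4 (APC4) and chromosome 5 (APC1) had none. With 10 genes this split is given as a count only.

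Values for other genes of the pathway are set beside those of the core subunit genes as a description only. These other genes were chosen with earlier results of these data known and are no independent reference. A list of 22 genes held the small subunits, activators, inhibitors, ubiquitin-conjugating enzymes, downstream factors and the spindle checkpoint, which keeps the APC/C inactive until chromosomes are attached. Of these 22 genes, 14 had a peak by the same rule, beside 4 of 10 core subunit genes and 13.9% of all genes. At all 14 the highest-scoring peak overlapped the gene, beside 57.3% of all protein-coding genes with a peak. Their median highest score was 47.7, beside 17.8 for the 4 core subunit genes, and 11 of the 14 exceeded the highest core value of 31.4. Of all protein-coding genes with a peak, 72.8% had a highest score below that value. Of the 14, 12 exceeded 19.9, the highest score of a peak that overlapped a core subunit gene. For 54.7% of all genes with a peak the highest score was below 19.9. The difference between the lists was not tested, since both were chosen with earlier results of these data known.

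Neither APC11, the RING subunit of the catalytic module, nor the small subunit APC13, also called BONSAI, had a peak. Their nearest peaks were 5128 and 37568 bp away.

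Activators bring substrates to the complex, and 4 of 8 had a peak, beside 13.9% of all protein-coding genes. CDC20.1 had 2, with scores of 94.6 on the gene and 45.8 at 565 bp from it. The second is the peak of its tandem neighbour CDC20.2, which it overlaps. CCS52B had a score of 45.5 in a peak 506 bp wide inside the gene that also overlapped the tRNA gene AT5G13845, and CCS52A2 had 20.37. CDC20.3, CDC20.4, CDC20.5 and CCS52A1 had no peak. The lowest of the activator scores was thus close to that of APC6, and the others were above every core value.

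The inhibitors UVI4 and UVI4-LIKE had the highest scores of the pathway, 203.0 and 187.7, at ranks 38 and 44 of 2931. Both peaks were wider than any at a core subunit gene, at 568 and 569 bp. SAMBA, a plant regulator of the complex, had no peak within 32175 bp. All 3 ubiquitin-conjugating enzyme genes had a peak, beside 13.9% of all protein-coding genes: UBC20 scored 153.7, UBC22 93.9 and UBC19 31.8. UBC19 and UBC20 belong to the family that hands ubiquitin to the APC/C in animals. The midpoints of the 3 peaks lay 94 to 174 bp inside the gene, nearer to a gene end than that of APC6.

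Among factors that act after the complex, ESP, the separase that cuts cohesin, had a score of 46.8, and PANS1, a plant protein with a securin-like role, had no peak. Of the spindle checkpoint genes all 4 had one, beside 13.9% of all protein-coding genes. MPS1, listed in the gene table as PPK1, scored 97.1 and BUBR1 48.7. MAD2 and BUB3.1 had 18.2 and 7.52, within the span of the core subunit genes. The low end of the pathway list thus overlapped the core subunit genes, while its upper part did not.

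**Figure D3:**
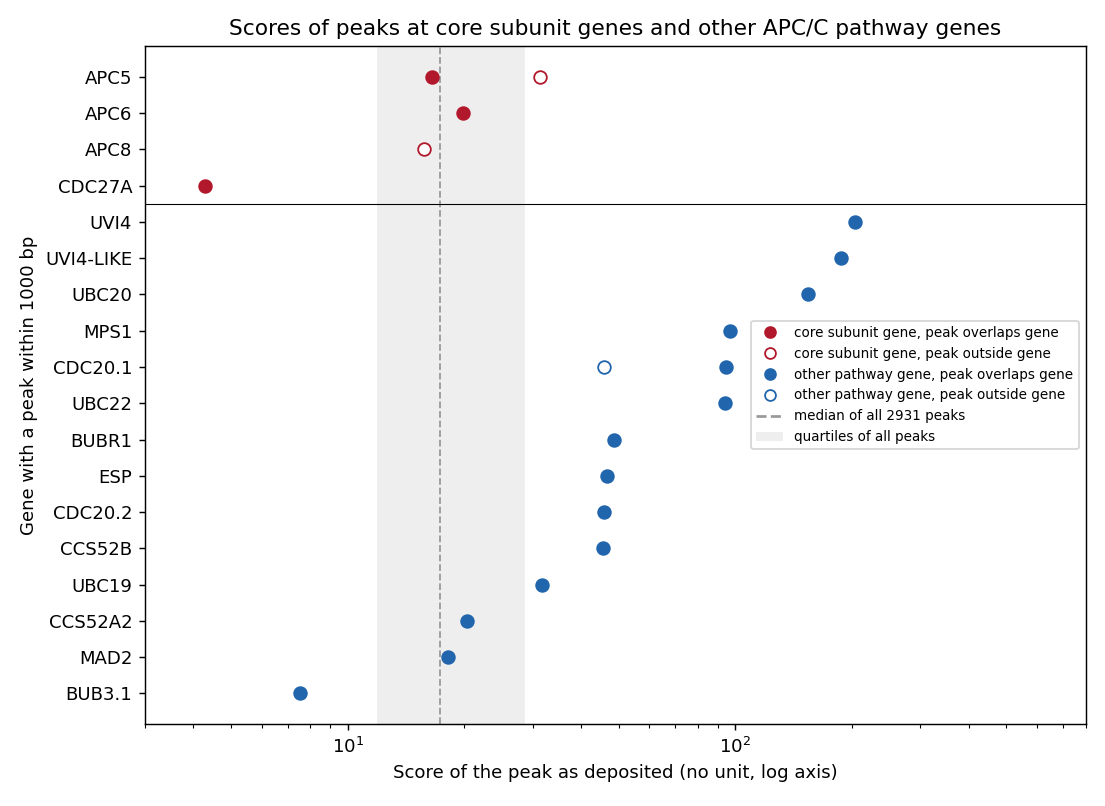
Points give the deposited score (no unit, log axis) of each peak within 1000 bp of a core subunit gene (red, 4 genes) or another pathway gene (blue, 14 genes); filled points overlap the gene. The dashed line is the median of all peaks, 17.4, and the grey band runs from 12.0 to 28.5; 4 of the 5 red points lie at or below 19.9.

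The count of core subunit genes and the share of all protein-coding genes, 4 of 10 and 13.9%, both fell with stricter score limits. Fewer peaks are used by construction under such limits. With the 1467 highest-ranked peaks, 2 of 10 core subunit genes (APC6 and APC5) had one, beside 7.59% of all protein-coding genes and 13 of the 22 other pathway genes. With the 733 highest-ranked peaks only APC5 remained of the 10, through the peak nearest to AT1G06620, beside 4.14% of all genes and 11 of 22 pathway genes. When a peak had to overlap the gene, 3 of 10 core subunit genes (CDC27A, APC6 and APC5) and 8.39% of all genes had one. The same 3 genes remained when each peak counted only for its nearest gene, beside 9.09% of all genes, and when overlap was asked for as well, beside 7.42%. With peaks that came within 1000 bp of 1 gene only, none of the 10 core subunit genes had one (0 of 10), beside 4.22% of all genes and 6 of 22 pathway genes. A window of 500 bp left out APC8 (3 of 10 genes, beside 11.9% of all genes), and a window of 2000 bp added no member (4 of 10, beside 17.8%). When the midpoint of the peak had to lie in the window of 1000 bp, the count was again 4 of 10, beside 13.4%.

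**Figure D4:**
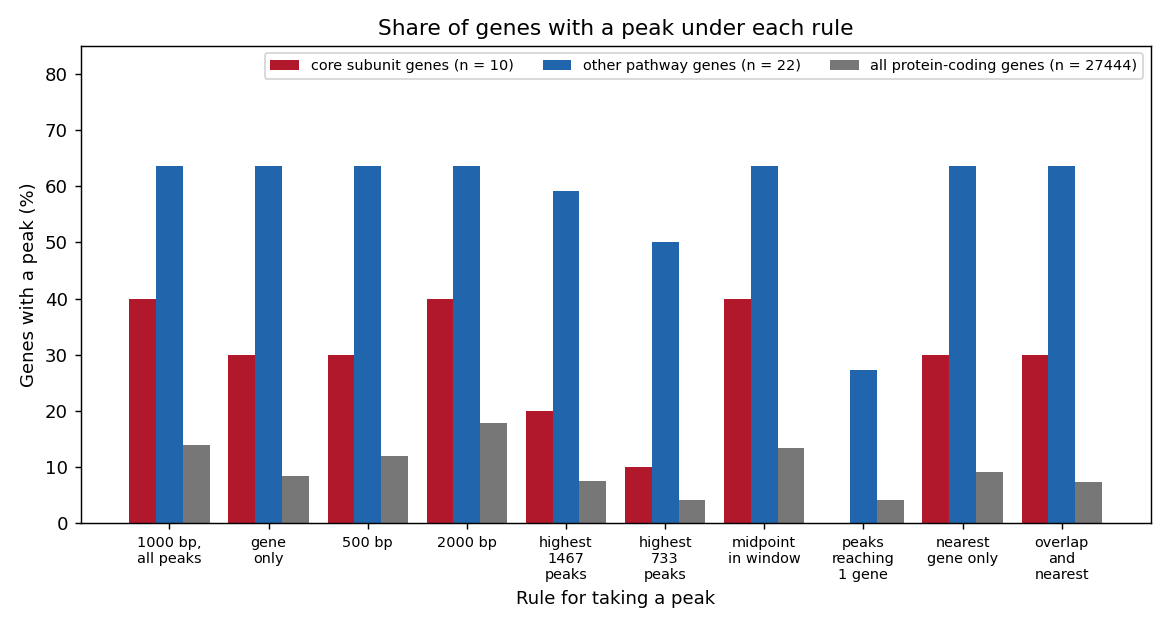
Bars start at 0 and give the share of genes with a peak (%) under 10 rules for taking a peak, for core subunit genes (red), other pathway genes (blue) and all protein-coding genes (grey). The core share runs from 4 of 10 genes down to 1 of 10 with the 733 highest-ranked peaks and 0 of 10 with peaks that reach 1 gene, while the pathway share keeps above it under each rule shown.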

How the data were processed

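Bowtie 0.12.7, SAMtools 0.1.18, MACS2 (without a version) and TAIR10 are named in the submitters' processing notes. No source used here gives the peak threshold, the use of the input or the read depth. The authors deposited a score per peak, used only to rank and filter within this list, and other deposited values (start and end in bp, start counted from 0; printed from 1).

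Gene positions came from a RefSeq table of TAIR10.1 with no strand or sequence; its coordinates are not printed. To check the match, midpoints were shifted along the chromosomes. Unshifted, 77.3% of them were at most 500 bp from a gene end, and 40.7% (median) at shifts of 4000 to 5000 bp. Shifts of -100 and 100 bp gave 76.8% and 77.0%, so an offset of that size would not show in this check. All 10 core and 22 pathway loci matched. A gene had a peak if 1 bp or more of a peak fell within it or 1000 bp to either side. A peak could count for several genes. The code for this rule was checked on planted peaks at known distances, which tests the code and not the peak calls. No p-value was computed.

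The genes named are all members, all pathway genes and genes sharing a peak with a member. Also named are the genes overlapped by the peak nearest to APC4, and tRNA genes overlapped by a peak of a member or pathway gene. Members, lists and rules were chosen with earlier results of these data known. No sequence was used, so the planned motif counts were not run. Alternatives changed the window, the score, the overlap and the assignment to genes. Python 3.11.15, pandas 2.3.3, NumPy 2.4.6 and matplotlib 3.10.9 were used.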

Additional observations from a re-analysis of the deposited data

How the results depend on the processing

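The count of core subunit genes with a peak was 4. It stayed within 1.5 times, at 3 or 4, with windows of 0, 500 and 2000 bp, with midpoints and with the nearest gene. The same held with overlap of the nearest gene (chosen after seeing the data). Under these rules the share of all genes ran from 7.42% (overlap of the nearest gene) to 17.8% (2000 bp). A count of 3 or 4 thus stands beside unlike shares. The core count was 2 with the 1467 highest-ranked peaks, 1 with the 733 highest-ranked and 0 with peaks that reach 1 gene. Beside these were 7.59%, 4.14% and 4.22% of all genes. Fewer peaks are used by construction in these 3 settings. The median score, 17.8, was 31.4 with the 733 highest-ranked peaks, where 1 gene is left, and 16.5 to 25.6 otherwise; with peaks that reach 1 gene no median exists. The pathway count, 14, was 6 with peaks that reach 1 gene, beside 4.22% of all genes. It was 11 to 14 otherwise, beside 4.14% (733 highest-ranked peaks) to 17.8% (2000 bp) of all genes. The motif alternative, which needs sequence, was not run. No paired analysis was possible because a single ChIP list was used and no group had a second library. With the read depth unknown, binding below the authors' threshold was not detectable.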
